A study of Mus musculus with 12 samples.

Results

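The comparison described here set 6 hippocampal libraries labelled as Kcnip3 knockout (3 Kcnip3 KO and 3 Kcnip3 KO-5xFAD) against 6 with an intact Kcnip3 gene (3 WT and 3 5xFAD), all 12 libraries of the series. The libraries were chosen by genotype label alone, and the transgene label entered the fit as a covariate. The result is the difference that goes with the knockout label over both backgrounds, named Kcnip3 loss below. Loss of the gene cannot be told apart here from other differences carried with that label. Kcnip3 KO mice lack Kcnip3 and carry no transgene, Kcnip3 KO-5xFAD mice lack Kcnip3 and carry the 5xFAD transgenes, 5xFAD mice carry the transgenes with Kcnip3 intact, and WT mice are the controls. The animals were adults. Strain, sex, age in months, the exons removed in the knockout and whether the 3 libraries of a genotype came from separate mice are not given in the labels, so p-values weigh the difference against a spread between libraries that may be technical. In 5xFAD mice, mutant human transgenes that cause familial Alzheimer's disease are driven by Thy1 sequences in neurons, which limits them as a model of the sporadic disease. mRNA libraries were made from one hemisphere and sequenced to 7664407 to 11310714 counts assigned to genes. Of 55385 genes, 15905 passed the filter on low counts and were tested.

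Kcnip3 encodes KChIP3, also called DREAM or calsenilin, a calcium-binding protein of the neuronal calcium sensor family. It binds Kv4 potassium channels at the membrane, interacts with presenilins, and in the nucleus binds downstream regulatory element (DRE) sites, where it represses transcription until calcium rises. In the hippocampus it is known for effects on neuronal excitability, synaptic plasticity and memory.

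Levels are given as CPM, the library's counts rescaled to 1e+06 in total after TMM scaling, a method that equalizes libraries by the bulk of their genes. CPM is not corrected for gene length, so levels are compared between libraries and not between genes. Genes with an adjusted p under 0.05 are described as called, and all adjusted p-values below are Benjamini-Hochberg values over the 15905 genes from edgeR's quasi-likelihood test, unless another tool is named. Log2 fold changes are knockout over intact, with SE.

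Few transcripts passed the test for loss of Kcnip3. Of the 15905 genes, 14 were called, which is 0.088% of those tested. Among them 5 rose, or 0.0314%, and 9 fell, or 0.0566%. An unadjusted p under 0.05 was reached by 1286 genes, or 8.09%. In the same fit 1129 genes, or 7.1%, were called for the transgene label. That label went against the reads in some libraries, as described below, and its genes were not counted without them. In none of the 14 did the knockout libraries overlap the intact ones, and over all genes 48, or 0.302%, had no overlap. By DESeq2, 26 genes were called and all 14 were among them.

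The genes that rose were Eif3j2, Pla2g4e, Gm3650, Pcna-ps2 and Rpap1. The genes that fell were Kcnip3 itself, Eif3j1, Mfap1b, Ivd, Bub1b, Haus2, Pcna, Tgm7 and Cd59a. They serve translation initiation, lipid signalling, splicing, amino acid breakdown, cell division, DNA replication, protein cross-linking and complement control, and 11 of the 14 lie on chromosome 2, which also holds Kcnip3.

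Kcnip3 (ENSMUSG00000079056, chromosome 2, 127456498 to 127522094, minus strand, GRCm38) checked the knockout label. Kcnip3 KO libraries held 71.4, 63.4 and 125.2 CPM of it, and Kcnip3 KO-5xFAD libraries 84.9, 68.7 and 70.1 CPM. WT libraries held 159.9, 158.3 and 161.7 CPM, and 5xFAD libraries 138.7, 156.4 and 137.7 CPM. Every knockout library was below every intact library, and the highest knockout library was Kcnip3 KO 3. The mean was 80.6 ± 23.0 CPM in knockout libraries and 152.1 ± 10.9 CPM in intact ones (SD, n = 6 each). The log2 fold change was -0.92 ± 0.13 (edgeR adjusted p = 0.00969). A two-sided exact permutation test of log2(CPM + 1) within each transgene label gave a difference of -0.94 and p = 0.005, the smallest its 400 arrangements can give. Kcnip3 transcript thus remained in all 6 knockout libraries. The counts cover the whole gene and do not show which exons the remaining reads came from. The edgeR call was lost without 5xFAD 2 (log2 fold change -0.89, adjusted p = 0.0521), and also without WT 3 and Kcnip3 KO-5xFAD 2 (log2 fold change -0.89, adjusted p = 0.124). It was regained when Kcnip3 KO 3 was left out as well (log2 fold change -1.05, adjusted p = 0.00021).

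The transgene label went against the reads in 2 libraries. Thy1, a check of this label because the transgene cassettes carry Thy1 sequence, was at 748.8 to 868 CPM in Kcnip3 KO, but at 926.2 CPM in the library labelled Kcnip3 KO-5xFAD 2, against 3381 and 2592 CPM in the other two of that genotype. It was at 2277 CPM in the library labelled WT 3, against 746.9 and 886.6 CPM in the other two WT libraries and 2870 to 4236 CPM in 5xFAD. Trem2 and Cst7, a receptor and a protease inhibitor of plaque-associated microglia, had the same pattern, with Cst7 at 1.00 CPM in Kcnip3 KO-5xFAD 2 and 26.5 CPM in WT 3. Kcnip3 was low in the first of these libraries and high in the second, as their knockout labels say. Log2 fold changes and list medians that these libraries move by over 1.5 times, or whose sign or call they change, are given with and without them. Where list medians within each background are given, they too are given with and without them. Without them 13 genes, or 0.0809%, were called, of which 12 were shared with the 14.

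Markers of hippocampal neurons (Slc17a7, Camk2a, Prox1, Wfs1, Grik4), of interneurons, astrocytes, oligodendrocytes, microglia and vessels were detected in all 12 libraries. Markers of choroid plexus, meninges, cortex, striatum and thalamus were detected as well, with the choroid plexus gene Ttr at 340.6 to 4394 CPM in knockout libraries and 83.5 to 8724 CPM in intact ones. Bulk counts cannot tell fewer cells of a type from less RNA per cell. Of 15 measures per library, covering depth, genes detected, the mitochondrial share and summed marker levels, none differed at an adjusted p under 0.05 between knockout and intact libraries in the exact permutation test. The lowest raw p was 0.015, for the summed level of interneuron genes (adjusted p = 0.225). The smallest p that the 400 arrangements can give is 0.005, so no measure could have passed alone after adjustment over 15. These p-values therefore do not show that composition or quality was equal.

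**Figure D1:**
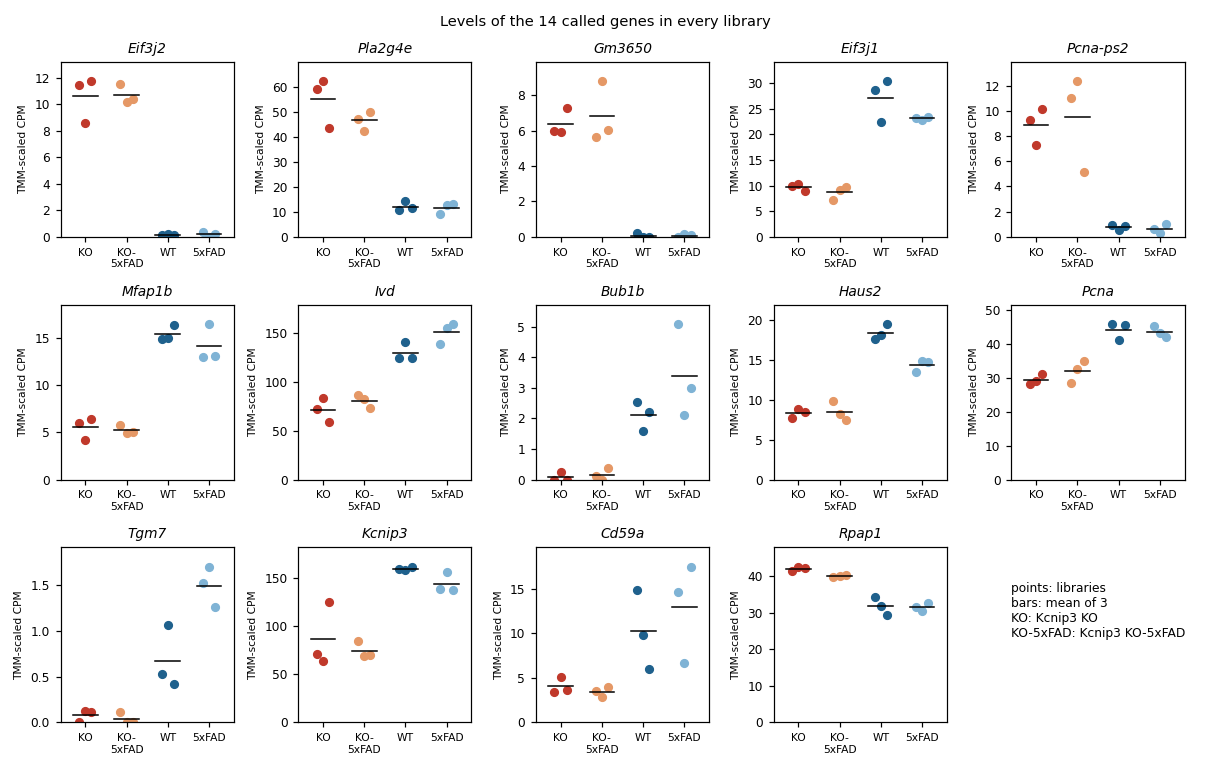
Levels of the 14 called genes in every library, in TMM-scaled CPM on linear axes from 0. Points are libraries and bars are means of 3, with Kcnip3 KO and Kcnip3 KO-5xFAD left of WT and 5xFAD; in each panel the 6 knockout libraries lie wholly above or wholly below the 6 intact ones.

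Pla2g4e had the clearest change among genes with no near-identical copy. It encodes cytosolic phospholipase A2 epsilon, a calcium-dependent enzyme that makes N-acyl phosphatidylethanolamines, precursors of endocannabinoid-like lipids. Pla2g4e (chromosome 2, 120166412 to 120245335, minus strand) reached 59.3, 62.2 and 43.6 CPM in the Kcnip3 KO libraries and 47.1, 42.6 and 50.1 CPM in the Kcnip3 KO-5xFAD libraries. It reached 10.6, 14.2 and 11.4 CPM in the WT libraries and 9.14, 12.9 and 13.1 CPM in the 5xFAD libraries. The lowest knockout library was far above the highest intact one. The mean was 50.8 ± 8.20 CPM against 11.9 ± 1.87 CPM in intact libraries (SD, n = 6 each), a 4.25-fold higher level (log2 fold change 2.09 ± 0.12, edgeR adjusted p = 1.52e-07). The effect was 2.19 ± 0.17 over WT and 1.98 ± 0.17 over 5xFAD on the log2 scale. The 2 comparisons share no library, but both are parts of the set that called the gene. Of the 10 phospholipase A2 genes tested, Pla2g4e was the only one called.

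Bub1b, which encodes the spindle checkpoint kinase BubR1 of dividing cells, was nearly absent from knockout libraries. Its counts summed to 6 over the knockout libraries and 148 over the intact ones. It was at 0 in 3 of the 6 knockout libraries and reached at most 0.368 CPM, against 1.59 to 5.08 CPM in intact libraries with a median of 2.37 CPM. The level was 23.9 times higher in intact libraries per scaled depth (95% exact interval 10.7 to 66.2, counting error only), and the log2 fold change was -4.43 ± 0.50 (edgeR adjusted p = 0.000411). The mean was 0.120 ± 0.155 CPM in knockout libraries and 2.76 ± 1.23 CPM in intact ones (SD, n = 6 each).

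Both promoters are shown because these had the largest gain and the largest loss among the called genes without a near-identical copy, and because KChIP3 binds DRE sites whose core is GTCA. The sequences are RefSeq promoters on GRCm38.p6, 250 bases before to 50 after the start of the gene, written 5′ to 3′ on the gene's strand, with the core on either strand (GTCA or TGAC) in capitals.
Pla2g4e, chr2:120245286-120245585, minus strand: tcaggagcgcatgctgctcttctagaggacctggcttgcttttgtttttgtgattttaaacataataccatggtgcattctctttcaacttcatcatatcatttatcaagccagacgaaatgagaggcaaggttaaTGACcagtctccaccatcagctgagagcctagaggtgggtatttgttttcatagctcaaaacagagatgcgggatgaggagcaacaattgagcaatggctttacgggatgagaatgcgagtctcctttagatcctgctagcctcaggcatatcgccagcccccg
Bub1b, chr2:118597961-118598260, plus strand: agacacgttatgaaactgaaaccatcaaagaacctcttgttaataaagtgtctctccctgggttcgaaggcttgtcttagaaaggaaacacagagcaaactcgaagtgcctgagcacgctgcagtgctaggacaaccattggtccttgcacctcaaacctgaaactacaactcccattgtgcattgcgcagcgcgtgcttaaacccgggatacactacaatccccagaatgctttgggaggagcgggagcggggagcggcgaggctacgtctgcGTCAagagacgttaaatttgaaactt

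Each of these windows held 1 core. Of the 14 called genes, 11 had a promoter in the RefSeq table, and 9 of those, or 81.8%, held at least 1 core. The share was 81.4% of 11785 tested genes with a listed promoter and 85.2% of all 32851 listed promoters. The called promoters without it were those of Ivd, which fell, and Rpap1, which rose. A match to 4 letters is a description of the window and not a binding site.

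Ivd, which encodes the isovaleryl-CoA dehydrogenase of leucine breakdown, fell in both backgrounds. It ranged from 58.9 to 86.9 CPM with a median of 78.3 CPM in knockout libraries, and from 124.5 to 159.6 CPM with a median of 140.1 CPM in intact ones. The gap between the groups was wider than the range within knockout libraries. The mean was 76.5 ± 10.3 CPM and 140.8 ± 14.8 CPM (SD, n = 6 each), a log2 fold change of -0.88 ± 0.08 (edgeR adjusted p = 4.52e-05). Ivd was the only one of 17 tested genes of leucine, isoleucine and valine breakdown to be called. Bcat1, the cytosolic transaminase of the pathway, had a log2 fold change of 0.25 ± 0.07 (edgeR adjusted p = 0.56).

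Haus2, a subunit of the augmin complex that branches spindle and neuronal microtubules, was at 7.49 to 9.87 CPM in knockout libraries, with a median of 8.37 CPM. It was at 13.5 to 19.5 CPM in intact libraries, with a median of 16.3 CPM. It fell by 0.95 ± 0.11 on the log2 scale (edgeR adjusted p = 0.000555). Haus2 had the lowest interaction p of the 14, with effects of -1.14 ± 0.14 in Kcnip3 KO over WT and -0.75 ± 0.14 in Kcnip3 KO-5xFAD over 5xFAD, but the difference did not pass (edgeR interaction test, adjusted p = 0.853).

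Tgm7, a transglutaminase, and Cd59a, a membrane-anchored inhibitor of the complement attack complex, also fell. Tgm7 was near the limit of detection, with 3 counts over the 6 knockout libraries and 57 over the intact ones, and was at 0 in 3 knockout libraries. Its level was 18.4 times higher in intact libraries (95% exact interval 5.99 to 92.0, counting error only; edgeR adjusted p = 0.00568). Cd59a was at 2.89 to 5.07 CPM in knockout libraries and at 5.95 to 17.5 CPM in intact ones, and the groups did not overlap. Its means were 3.76 ± 0.729 CPM and 11.6 ± 4.77 CPM (SD, n = 6 each), with a log2 fold change of -1.62 ± 0.27 (edgeR adjusted p = 0.0318). Cd59a remained called in only 3 of the 12 fits that left out a library (without WT 3, Kcnip3 KO 2 or 5xFAD 2), with an adjusted p of up to 0.12 in the others. Cd59b, its neighbour and second copy by name, had a log2 fold change of -1.05 (edgeR unadjusted p under 0.05) and was not called.

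Rpap1, an RNA polymerase II-associated protein, rose by the least. It was at 39.8 to 42.5 CPM in knockout libraries and 29.2 to 34.2 CPM in intact ones, with means of 41.1 ± 1.14 CPM and 31.7 ± 1.75 CPM (SD, n = 6 each). The libraries of each group lay close together. The log2 fold change was 0.37 ± 0.06 (edgeR adjusted p = 0.0344). The call was lost in each of the 12 fits that left out a library, with an adjusted p of up to 0.133, while the log2 fold change stayed between 0.34 and 0.40. Without WT 3 and Kcnip3 KO-5xFAD 2 it was 0.34 as well (adjusted p = 0.249).

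The remaining called genes belong to families with near-identical members at another place in the genome. Of the 14 called genes, 6 share at least 98% identity over at least 300 bases with a gene at another locus, against 700 of 15905 tested genes, or 4.4%. A read that fits both copies cannot be placed, and the sources used here do not state how the authors' counting treated such reads. The values of these genes are therefore uncertain one by one, and the sum of each pair is given as well. A sum that was not called is not thereby shown to be unchanged.

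Pcna encodes the sliding clamp of DNA replication, and Pcna-ps2 on chromosome 19 is a processed pseudogene of it. Pcna (chromosome 2, 132249162 to 132253314) was at 28.2 to 34.9 CPM in knockout libraries and 41.1 to 45.7 CPM in intact ones (log2 fold change -0.51 ± 0.07, edgeR adjusted p = 0.00568). Pcna-ps2 was at 5.16 to 12.3 CPM in knockout libraries and 0.284 to 0.996 CPM in intact ones (log2 fold change 3.63 ± 0.27, edgeR adjusted p = 3e-06). The pseudogene held 12.9% to 28.0% of the pair's counts in knockout libraries and 0.652% to 2.32% in intact ones. The sum was 39.9 ± 3.07 CPM and 44.4 ± 2.02 CPM (SD, n = 6 each), with ranges that overlapped. It was not called (log2 fold change -0.16 ± 0.07, edgeR adjusted p = 0.614, unadjusted p = 0.0369). The copies differ at 6 of 781 compared bases. A 60-base stretch is shown because it holds 2 of the few bases that can assign a read to one copy or the other, in capitals. It runs from base 131 to 190 of the Pcna coding sequence and from base 130 to 189 of Pcna-ps2 in GENCODE M21.
Pcna: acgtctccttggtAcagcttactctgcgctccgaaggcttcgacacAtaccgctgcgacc
Pcna-ps2: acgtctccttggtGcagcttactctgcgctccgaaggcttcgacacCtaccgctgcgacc

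Eif3j1 and Eif3j2 both encode subunit J of translation initiation factor eIF3, which helps to assemble and recycle ribosomes. Eif3j1 (chromosome 2, 122028546 to 122056598) was at 7.21 to 10.4 CPM in knockout libraries and 22.3 to 30.3 CPM in intact ones (log2 fold change -1.45 ± 0.10, edgeR adjusted p = 1.88e-06). Eif3j2 on chromosome 18 was at 8.58 to 11.7 CPM in knockout libraries and 0 to 0.381 CPM in intact ones, with 564 counts against 9. The level was 64.6 times higher in knockout libraries (95% exact interval 33.8 to 142.1, counting error only), with a log2 fold change of 5.90 ± 0.27 (edgeR adjusted p = 1.06e-08). The transcript of Eif3j2 matches that of Eif3j1 at 99.4% over 2379 bases, with 4 mismatches and 10 gap bases. Eif3j2 held 45.2% to 61.5% of the pair's counts in knockout libraries and at most 1.61% in intact ones. The sum of both was 19.9 ± 1.04 CPM and 25.3 ± 3.37 CPM (SD, n = 6 each), and its log2 fold change of -0.35 ± 0.09 was not called (edgeR adjusted p = 0.518). This sum was nevertheless lower in every knockout library, at 18.7 to 21.4 CPM against 22.5 to 30.4 CPM in intact ones (edgeR unadjusted p = 0.00119). Of the 14 eIF3 subunit genes tested, these were the only 2 called.

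Gm3650, an unprocessed pseudogene, lies beside Eif3j2 on chromosome 18 and resembles Spg11, the gene that overlaps the end of Eif3j1 on chromosome 2. Spg11 encodes spatacsin, a protein of lysosome recycling. Gm3650 was at 5.66 to 8.78 CPM in knockout libraries and 0 to 0.213 CPM in intact ones, with 348 counts against 4. The level was 89.7 times higher in knockout libraries per scaled depth (95% exact interval 34.7 to 331.2, counting error only). The log2 fold change was 6.24 ± 0.37 (edgeR adjusted p = 1.85e-07), and ranged from 4.59 to 6.48 over the alternatives other than leaving out 1 library. It matches Spg11 at 99.9% over 747 bases. Spg11 itself was at 8.89 to 15.7 CPM in knockout libraries and 8.37 to 13.3 CPM in intact ones, which overlap (log2 fold change -0.02 ± 0.15, and 0.043 without WT 3 and Kcnip3 KO-5xFAD 2). The sum of the pair had a log2 fold change of 0.63 ± 0.12 and was not called (edgeR adjusted p = 0.126). Eif3j1 and Spg11 overlap on opposite strands, and the sources used here do not state whether the counting used strand, so reads in the overlap cannot be told apart.

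Mfap1a and Mfap1b, neighbours on chromosome 2, encode a component of the spliceosome and have the same coding sequence, with 0 differences in 1317 bases. Over 2328 aligned bases of their transcripts the identity is 99.3%, with 16 mismatches, so some reads outside the coding sequence can be assigned. Mfap1b was at 4.23 to 6.45 CPM in knockout libraries and 12.9 to 16.5 CPM in intact ones (log2 fold change -1.45 ± 0.12, edgeR adjusted p = 1.31e-05). Mfap1a was at 16.8 to 20.7 CPM in knockout libraries and 11.1 to 18.1 CPM in intact ones, which overlap (log2 fold change 0.34 ± 0.12, edgeR adjusted p = 0.597). Its effect was 0.04 ± 0.14 in Kcnip3 KO over WT and 0.64 ± 0.14 in Kcnip3 KO-5xFAD over 5xFAD (edgeR interaction test, adjusted p = 0.853). Mfap1b held 19.1% to 27.7% of the pair's counts in knockout libraries and 46.1% to 58.3% in intact ones. The sum was 23.3 ± 1.40 CPM and 29.0 ± 3.84 CPM (SD, n = 6 each), a log2 fold change of -0.31 ± 0.09. It was not called (edgeR adjusted p = 0.567, unadjusted p = 0.00346), and its ranges overlapped.

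With the counts of these 4 pairs summed, 6 genes were called, of which 1 rose and 5 fell, and all 6 lie on chromosome 2. Cd59a (adjusted p = 0.0591) and Rpap1 (adjusted p = 0.06) were not among them, while their log2 fold changes stayed at -1.62 and 0.37. This summing was chosen after the called genes were seen.

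**Figure D2:**
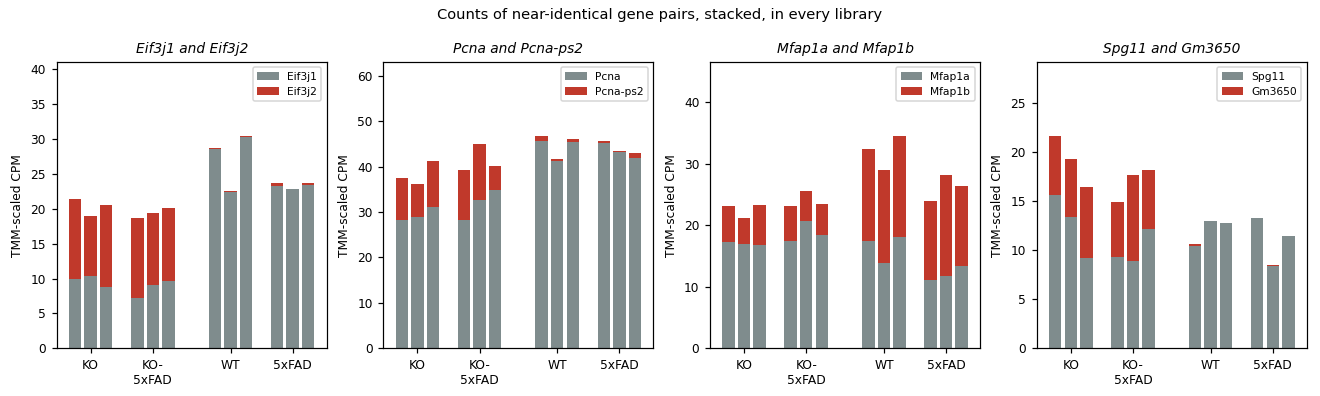
Counts of 4 near-identical gene pairs stacked in every library, in TMM-scaled CPM from 0. Each bar is a library, with Kcnip3 KO and Kcnip3 KO-5xFAD left of WT and 5xFAD; Eif3j2, Pcna-ps2 and Gm3650 add visible counts in the 6 knockout libraries and little in the 6 intact ones, while Mfap1b takes a smaller share in knockout libraries.

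The direction of change was shared by both backgrounds. All 14 genes had the same sign, with an unadjusted p under 0.05, in Kcnip3 KO over WT and in Kcnip3 KO-5xFAD over 5xFAD. Because the 14 were called on these same libraries pooled, this agreement was largely fixed by that choice and is not a replication. The same limit applies below where 2 libraries are left out. On their own these comparisons called 8 genes, or 0.0503%, and 11 genes, or 0.0692%. Without WT 3 and Kcnip3 KO-5xFAD 2 they called 7 and 6 genes, and all 14 kept their sign and an unadjusted p under 0.05 in both. The test of the difference between backgrounds called 0 of 15905 genes by edgeR, with 836 at an unadjusted p under 0.05, or 5.26%. It called 3 by DESeq2 and 0 by limma-voom. Leaving out a library in turn gave 0 to 4 genes, with 4 without 5xFAD 1, 3 without Kcnip3 KO 2, and 1 each without Kcnip3 KO 1, Kcnip3 KO-5xFAD 2 or Kcnip3 KO-5xFAD 3. A p that misses the threshold does not show that the effects were equal. Tgm7 had the widest gap between its effects, at -2.93 ± 0.79 in Kcnip3 KO over WT and -4.84 ± 0.78 in Kcnip3 KO-5xFAD over 5xFAD.

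**Figure D3:**
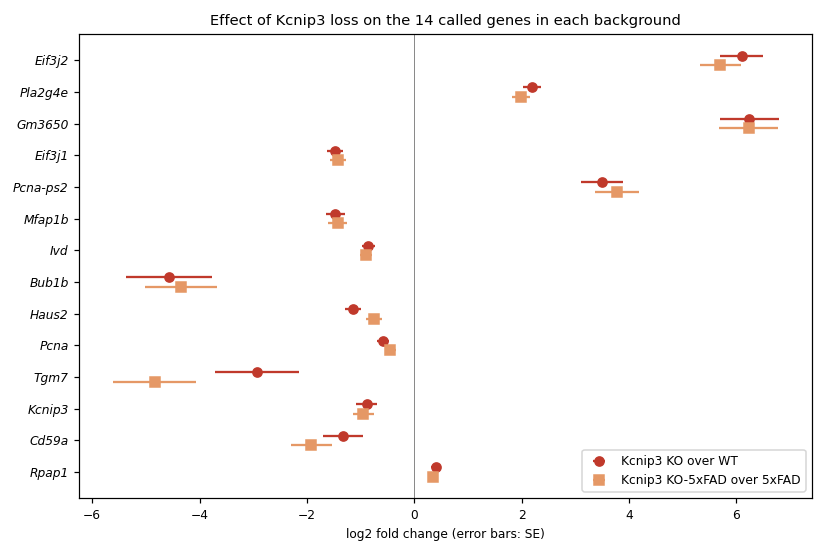
Log2 fold changes of the 14 called genes with SE bars, in Kcnip3 KO over WT (circles) and in Kcnip3 KO-5xFAD over 5xFAD (squares), each 3 libraries against 3. Every gene lies on the same side of 0 in both, from about 6 for Eif3j2 and Gm3650 to below -4 for Bub1b in both and for Tgm7 in the 5xFAD background.

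Most called genes lay within 10 Mb of Kcnip3, but few of them close to it. Within 5 Mb, 1 of 109 other tested genes was called, or 0.917%, and at lower coordinates 0 of 39. Of the 213 other tested genes within 10 Mb of Kcnip3, 9 were called, or 4.23%, against 3 of 14662 on other chromosomes, or 0.0205%. Those 3 are the copies Eif3j2, Gm3650 and Pcna-ps2. Off chromosome 2, DESeq2 called 7 of its 26 genes, and edgeR with no filter on low counts called 23 of 52. Between 5 and 10 Mb on the side of lower coordinates, 8 of 86 genes were called, or 9.3%, and 37.2% had an unadjusted p under 0.05, against 7.71% on other chromosomes. They are Bub1b, Ivd, Rpap1, Pla2g4e, Haus2, Tgm7, Mfap1b and Eif3j1, which lie 5.40 to 8.82 Mb from Kcnip3. On the side of higher coordinates Pcna, 4.73 Mb away, was the only gene called, with 0 of 18 called between 5 and 10 Mb. Cd59a lies farther out, at 23.3 Mb.

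Within 10 Mb the 56 genes with an unadjusted p under 0.05 were split into 25 higher and 31 lower in knockout libraries, and the median log2 fold change of all 213 was -0.02, against 0.01 on other chromosomes. The spread was wider, with an SD of log2 fold changes of 0.57 against 0.24 on other chromosomes. From 10 to 20 Mb, 0 of 71 genes were called and 14.1% had an unadjusted p under 0.05. Beyond 40 Mb, 0 of 635 were called and the share was 9.61%. Whether distance from Kcnip3 had a part in these changes was not tested. The design cannot tell loss of Kcnip3 from other differences that go with the knockout label.

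**Figure D4:**
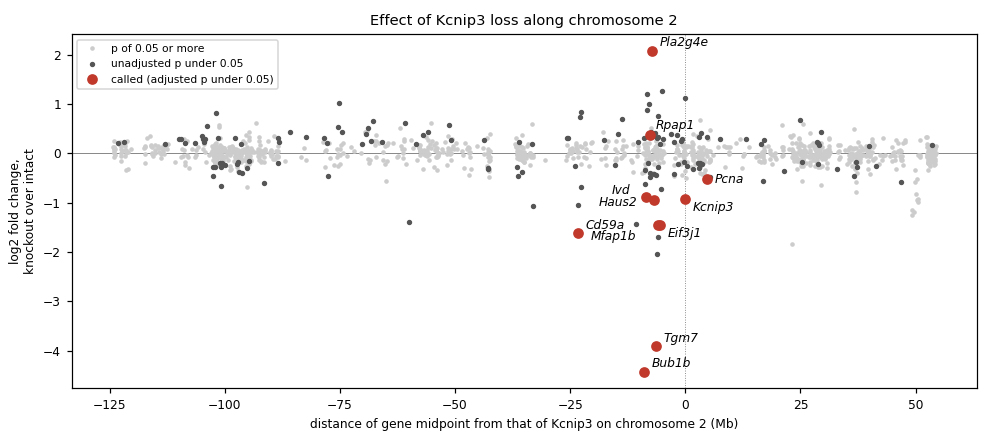
Log2 fold change, knockout over intact, of each tested gene on chromosome 2 against the distance of its midpoint from that of Kcnip3 in Mb, with negative distances at lower coordinates. Red points are the called genes, dark points have an unadjusted p under 0.05 and pale points do not; 8 called genes lie 5 to 10 Mb from Kcnip3 at lower coordinates, in both directions of change.

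Just outside the threshold, 5 genes followed, all on chromosome 2. Strc, which encodes stereocilin of inner ear hair bundles, was at 0.222 to 1.27 CPM in knockout libraries and 1.04 to 2.92 CPM in intact ones (log2 fold change -2.05 ± 0.39, edgeR adjusted p = 0.0865). Mapkbp1, a scaffold of the JNK kinase pathway, was at 56.2 to 83.5 CPM and 49.6 to 61.0 CPM (log2 fold change 0.44 ± 0.08, edgeR adjusted p = 0.09), and was called without WT 3 and Kcnip3 KO-5xFAD 2 (log2 fold change 0.51, edgeR adjusted p = 0.0225). The others were 2810002D19Rik (-1.07 ± 0.19, adjusted p = 0.058), Bambi-ps1 (1.26 ± 0.24, adjusted p = 0.0923) and Gm14018 (-1.69 ± 0.33, adjusted p = 0.104). In the edgeR fit of filtered genes, the smallest p on another chromosome, the copies aside, belonged to Trak2, an adaptor for mitochondrial transport in axons and dendrites. Trak2 was at 122.8 to 159.6 CPM in knockout libraries and 91.9 to 119.8 CPM in intact ones (log2 fold change 0.35 ± 0.07, edgeR adjusted p = 0.163). It was chosen after its values were seen. DESeq2 called Strc, Mapkbp1, 2810002D19Rik, Bambi-ps1 and Trak2. On other chromosomes it also called Gm3375 (log2 fold change 5.35, DESeq2 adjusted p = 4.37e-07), Gm6257 (4.40, DESeq2 adjusted p = 0.0476) and Ftl1, a ferritin light chain gene (-0.32, DESeq2 adjusted p = 0.0417), which are named after their values were seen. They were not among the edgeR calls, and their levels are not given here. DESeq2 was run without the filter on low counts, with p adjusted over 23736 genes, so a large fold change there can rest on few counts.

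The partners of KChIP3 were not called. Of the 9 tested genes of the KChIP family and the Kv4 channel complex, 1 was called, Kcnip3. The other family members had log2 fold changes of 0.27 ± 0.12 for Kcnip1 (adjusted p = 0.614), -0.07 ± 0.11 for Kcnip2 (adjusted p = 0.859) and 0.08 ± 0.11 for Kcnip4 (adjusted p = 0.822). Without WT 3 and Kcnip3 KO-5xFAD 2 the last 2 were -0.15 and 0.043. Kcnip2 was at 147.2 to 302.5 CPM in knockout libraries and 181.5 to 306.2 CPM in intact ones. Kcnd2, which encodes the Kv4.2 channel, was at 37.1 ± 5.87 CPM and 31.0 ± 5.30 CPM (SD, n = 6 each), with a log2 fold change of 0.27 ± 0.11 (edgeR adjusted p = 0.597). None of 14 presenilin and secretase genes was called, and their median log2 fold change was 0.01, and 0.03 without the 2 libraries. Psenen, a subunit of gamma-secretase, had -0.20 ± 0.08 (edgeR adjusted p = 0.61).

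None of 13 tested genes reported as DREAM targets was called. Their median was -0.16, with 3 higher and 10 lower, against 51.2% higher and 48.8% lower over all tested genes, whose median was 0.005. The median was -0.28 in Kcnip3 KO over WT and 0.23 in Kcnip3 KO-5xFAD over 5xFAD, and -0.18 and 0.08 without WT 3 and Kcnip3 KO-5xFAD 2. Aanat, the melatonin enzyme under DREAM control in the pineal gland, was at 1.05 to 2.54 CPM in knockout libraries and 1.81 to 3.30 CPM in intact ones (log2 fold change -0.73 ± 0.26, edgeR adjusted p = 0.597). Il4, reported as a target in T cells, was at 11.1 ± 1.16 CPM and 8.72 ± 1.10 CPM (SD, n = 6 each), with a log2 fold change of 0.35 ± 0.11 (edgeR adjusted p = 0.597).

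Activity-regulated genes, which neurons induce within minutes of firing, had no called member among 30 and a median of -0.01, with 15 higher and 15 lower. Without WT 3 and Kcnip3 KO-5xFAD 2 this median was -0.04. The median was -0.31 in Kcnip3 KO over WT and 0.30 in Kcnip3 KO-5xFAD over 5xFAD, and -0.18 and 0.18 without the 2 libraries. Fos, chosen after its values were seen, reached 13.6, 7.97 and 15.5 CPM in Kcnip3 KO libraries, against 49.0, 54.2 and 36.5 CPM in WT libraries. It reached 38.2, 25.0 and 19.1 CPM in Kcnip3 KO-5xFAD libraries, against 25.3, 7.66 and 11.2 CPM in 5xFAD libraries. Kcnip3 KO libraries were all below WT ones, and the libraries of the 5xFAD background overlapped. How many of all genes separate 3 libraries from 3 in this way was not counted. Scg2, an activity-induced neuropeptide precursor, had a log2 fold change of 0.26 ± 0.13 over both backgrounds (edgeR adjusted p = 0.633).

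Genes of calcium handling and synapses had no called member. The medians were 0.08 for 41 calcium channel, pump and store genes (28 higher, 13 lower; 0.05 without the 2 libraries), 0.09 for 37 glutamate receptor and plasticity genes (24 higher, 13 lower) and 0.01 for 27 genes of vesicle release (14 higher, 13 lower; 0.05 without those libraries). They were 0.07 for 31 potassium channels other than Kv4 (25 higher, 6 lower) and 0.13 for 26 interneuron and GABA receptor genes (20 higher, 6 lower). Slc8a1, a sodium-calcium exchanger, was at 89.4 ± 11.9 CPM in knockout libraries and 73.6 ± 11.2 CPM in intact ones (SD, n = 6 each), with a log2 fold change of 0.29 ± 0.08 (edgeR adjusted p = 0.55). Gad2, which makes GABA, had 0.29 ± 0.08 (edgeR adjusted p = 0.55), and Kcnh3, a brain potassium channel, had -0.25 ± 0.08 (edgeR adjusted p = 0.564).

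Microglial and complement lists had the lowest medians, and these moved with the 2 libraries whose Thy1 level went against their label. Of 28 plaque-associated microglial genes 27 were lower in knockout libraries, none was called, and the median was -0.58. Without those 2 libraries it was -0.24, with 24 of 28 lower. Within the backgrounds the median was -0.37 in Kcnip3 KO over WT and -0.54 in Kcnip3 KO-5xFAD over 5xFAD, and -0.05 and -0.28 without the 2 libraries. Of 24 complement and antigen presentation genes 23 were lower, with a median of -0.46 that became -0.18 with 20 lower. Their median was -0.43 in Kcnip3 KO over WT and -0.39 in Kcnip3 KO-5xFAD over 5xFAD, and -0.21 and -0.04 without the 2 libraries. B2m, the light chain of class I molecules, lies 5.30 Mb from Kcnip3. Kcnip3 KO libraries held 65.1, 56.7 and 58.2 CPM of it, against 115.2, 95.9 and 129.5 CPM in WT libraries. Kcnip3 KO-5xFAD libraries held 241.2, 80.2 and 177.2 CPM, against 258.2, 241.8 and 231.2 CPM in 5xFAD libraries. Kcnip3 KO and WT libraries did not overlap, and those of the 5xFAD background did (log2 fold change -0.73 ± 0.21, edgeR adjusted p = 0.564). Without the 2 libraries the log2 fold change of B2m was -0.51 (edgeR adjusted p = 0.424).

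Homeostatic microglial genes had a median of -0.21, and of -0.02 without the 2 libraries. Reactive astrocyte genes had -0.16 and -0.05, while astrocyte genes had 0.03 and 0.06. Interferon response genes had -0.15 and 0.00 over both backgrounds, but their medians were of opposite sign within them. In Kcnip3 KO over WT the median was -0.42 with 26 of 27 lower, and in Kcnip3 KO-5xFAD over 5xFAD it was 0.12 with 21 of 27 higher. Without the 2 libraries these medians were -0.63 with 25 lower and 0.52 with 25 higher. Leaving out a library in turn moved the median over both backgrounds between -0.46 and 0.02. No member of these lists was called. Apoe, a lipid carrier of astrocytes and microglia, was at 3226 ± 766 CPM in knockout libraries and 4163 ± 1577 CPM in intact ones (SD, n = 6 each), with a log2 fold change of -0.32 ± 0.11 (edgeR adjusted p = 0.597).

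**Figure D5:**
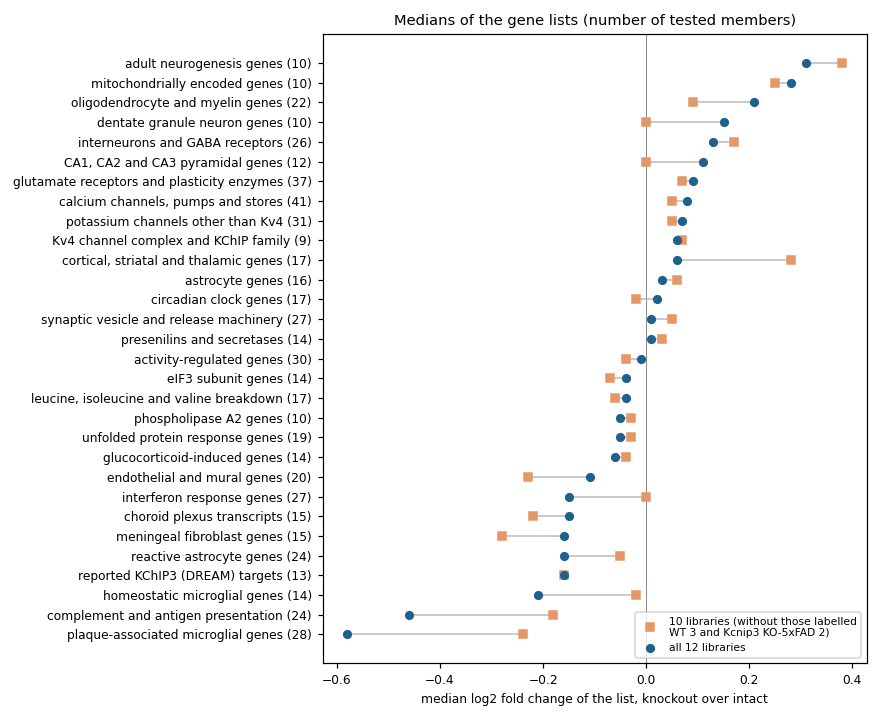
Median log2 fold change, knockout over intact, of each gene list with at least 9 tested members, with the number tested in brackets. Squares are medians from the 10 libraries without those labelled WT 3 and Kcnip3 KO-5xFAD 2, and circles are medians from all 12; the plaque-associated microglial list lies at -0.24 without them and -0.58 with them.

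Of 22 oligodendrocyte and myelin genes 20 were higher, with a median of 0.21 that became 0.09 without the 2 libraries, and none was called. In Kcnip3 KO over WT 22 of 22 were higher with a median of 0.48, and in Kcnip3 KO-5xFAD over 5xFAD 13 of 22 were lower with a median of -0.03. Without the 2 libraries these medians were 0.33 with 19 higher and -0.10 with 14 lower. Ugt8a, which makes the galactosylceramide of myelin, was at 16.4 to 29.0 CPM in knockout libraries and 5.67 to 16.8 CPM in intact ones (log2 fold change 0.74 ± 0.21, edgeR adjusted p = 0.559). Choroid plexus transcripts had medians of opposite sign, with 0.67 in Kcnip3 KO over WT and -1.08 in Kcnip3 KO-5xFAD over 5xFAD, and with 0.19 and -0.79 without the 2 libraries. Over both backgrounds their median was -0.15, and -0.22 without them. The summed level of the 15 transcripts ranged from 557 to 5427 CPM in knockout libraries and from 249.4 to 10290 CPM in intact ones. Meningeal fibroblast genes had a median of -0.16 over both backgrounds, and of -0.28 with 14 of 15 lower without the 2 libraries. Their median was -0.48 in Kcnip3 KO over WT and 0.31 in Kcnip3 KO-5xFAD over 5xFAD, and -0.66 and 0.29 without those libraries. For endothelial and mural genes the median was -0.11, 18 of the 20 being lower, and without those libraries it was -0.23, 19 being lower. None of these 3 lists had a called member, and the differences between backgrounds were not tested for a list.

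All 10 tested mitochondrially encoded genes were higher in knockout libraries, with a median of 0.28, but none was called. mt-Nd2, a subunit of complex I, was at 2777 ± 394 CPM in knockout libraries and 2197 ± 245 CPM in intact ones (SD, n = 6 each), with a log2 fold change of 0.34 ± 0.10 (edgeR adjusted p = 0.56). The mitochondrial share of counts was 4.14% to 5.47% in knockout libraries and 3.58% to 5.10% in intact ones, which overlap (exact permutation p = 0.065, adjusted p = 0.325 over the 15 measures).

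Region markers had medians of 0.15 for dentate granule neurons, 0.11 for CA1, CA2 and CA3 pyramidal cells and 0.06 for cortex, striatum and thalamus, and of 0.00, 0.00 and 0.28 without the 2 libraries. Prox1, a transcription factor of dentate granule neurons, was at 18.4 to 45.0 CPM in knockout libraries and 11.6 to 26.8 CPM in intact ones (log2 fold change 0.69 ± 0.25, edgeR adjusted p = 0.597), and its log2 fold change was 0.40 without the 2 libraries. The 10 adult neurogenesis genes had a median of 0.31, of 0.38 without the 2 libraries, and of 0.12 both without Kcnip3 KO-5xFAD 1 and with a stricter filter. It was -0.07 with 6 of 10 lower in Kcnip3 KO over WT, and 0.36 with 7 of 10 higher in Kcnip3 KO-5xFAD over 5xFAD, against -0.16 and 0.36 without the 2 libraries. The 6 opioid genes had a median of 0.38, and of 0.44 without them. Unfolded protein response, glucocorticoid-induced and circadian clock genes had medians of -0.05, -0.06 and 0.02, and of -0.03, -0.04 and -0.02 without them. Sult1a1, a sulfotransferase among the glucocorticoid-induced genes, was at 15.2 ± 3.71 CPM in knockout libraries and 22.4 ± 3.77 CPM in intact ones (SD, n = 6 each), with a log2 fold change of -0.55 ± 0.16 (edgeR adjusted p = 0.55). None of these lists had a called member.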

How the data were processed

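Hippocampal mRNA libraries were made with a TruSeq kit, per the labels' protocols. Per the submitters' processing notes the tools were FastQC 0.11.9, HISAT2 2.1.0, featureCounts, R 4.2.1 and edgeR 3.38.4 on mm10; the sources used here state neither strand setting nor annotation. The authors deposited raw read counts for 55385 genes, used here, and log2 TPM values, used only as an alternative. Positions came from GENCODE M21 on GRCm38; IDs without a symbol there held 0.00278% of counts.

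Counts were fitted in edgeR 4.0.16 under R 4.3.3 with knockout and transgene terms, TMM scaling, filterByExpr by genotype and a robust quasi-likelihood test. The fit was tested on simulated data. A count of 3 is 0.272 to 0.425 CPM. Intervals cover counting error only. Gene copies were found with BLAST 2.17.0. No pair of libraries of the same genotype agreed within sampling noise, and pairs across genotypes were not compared in this way.

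Named genes were label checks, called genes, the members of lowest p in each list (at most 2 where none was called), and second copies; exceptions are stated. The libraries compared, the lists and the rule were chosen with earlier results of these data known. Alternatives were scaling, filter, DESeq2 1.42.0, limma 3.58.1, covariates, replicate block, length and GC correction, and libraries left out.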

Additional observations from a re-analysis of the deposited data

Results flagged for a closer look

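A sample far from the others of its group was looked for in each named gene, in knockout and in intact libraries apart. It was found in 5 of 110 groups of 6 libraries, or 4.55%, and chance marks about 1 in 20 groups. In knockout libraries Kcnip3 was highest in Kcnip3 KO 3, at 125.2 CPM, with the nearest library at 84.9 CPM and the lowest at 63.4 CPM. Strc, 6.07 Mb from Kcnip3, was highest in the same library, at 1.27 CPM, with the nearest at 0.523 CPM. Aanat was highest in Kcnip3 KO 2, at 2.54 CPM, with the nearest at 1.55 CPM. Pdyn, the prodynorphin gene reported as a DREAM target and chosen after its values were seen, was lowest in Kcnip3 KO-5xFAD 1, at 7.87 CPM, with the nearest at 15.5 CPM. In intact libraries Ryr3, a calcium release channel, was lowest in 5xFAD 2, at 14.8 CPM, with the nearest at 21.9 CPM.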

How the results depend on the processing

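Against 5 genes higher and 9 lower, no filter gave 24 and 28 (13 of the 14 shared), DESeq2 gave 13 higher, and summed copies gave 1 and 5. Leaving out a library gave 4 to 6 higher and 8 to 10 lower, and 11 of the 14 genes were called in each of these 12 fits, the others being Kcnip3, Cd59a and Rpap1. Pcna was not called without WT 3, Kcnip3 KO-5xFAD 2 and Kcnip3 KO 3 together (adjusted p = 0.0591). The 0 genes of the interaction became 272 with no filter, 3 with DESeq2, 1 without WT 3 and Kcnip3 KO-5xFAD 2, and 0 to 4 without a library. The Kcnip3 difference of -0.94 ranged from -1.09 to -0.85. The sign of Spg11 turned, to 0.011 with limma on log2 TPM, 0.043 without the 2 libraries and 0.12 without the 3, and ranged from -0.11 to 0.056 without a library. The cause was not tested. Deviations from genotype means correlated at -0.32 to 0.25 over 18 pairs of same-numbered libraries, and at -0.38 to 0.29 between differently numbered ones. These ranges gave no sign that replicate numbers pair the libraries, but cannot exclude it. The replicate block gave 6 higher and 8 lower, 12 of the 14 shared, and 1 interaction gene; with the length and GC correction it gave 7 and 8. Depth limits genes with few counts in 1 group, such as Tgm7 (3 in knockout libraries), Gm3650 (4 in intact ones) and Bub1b (6 in knockout libraries).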
